A study of Mus musculus with 6 samples.

Results

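Phase II conjugation enzymes attach a water-soluble group to drugs, hormones, bile pigments and bile acids so that these can leave the body in bile or urine. UDP-glucuronosyltransferases (UGTs) transfer glucuronic acid from UDP-glucuronate, sulfotransferases (SULTs) transfer sulfate from the donor PAPS, and glutathione transferases (GSTs) join glutathione to reactive molecules. The liver is a main site of all these reactions, and in mice several of the genes are known to be expressed at different levels in the livers of males and females. The genes described here are the 63 of the 55450 in the table whose symbols begin with Ugt1a, Ugt2, Ugt3, Sult, Gsta, Gstk, Gstm, Gsto, Gstp or Gstt and go on with a number or a letter and a number. They comprise 21 genes of each kind of transfer, all annotated as protein-coding, and 7 further symbols ending in -ps were left out. The rule uses their symbols alone.

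Poly(A) RNA was sequenced from the livers of 6 mice of strain C57BL/J (as the label spells it) at 10 weeks of age, with 3 LKB1 knockout mice (KO) and 3 wild-type mice (WT). LKB1 is the kinase encoded by Stk11, which activates AMPK and related kinases. The KO mice carried LKB1 fl/fl alleles, the WT mice did not, and both groups had received AAV8 Cre, an adeno-associated virus carrying the Cre recombinase, at 6 weeks of age, 4 weeks before the livers were taken. The promoter that drove Cre was not given in the sources used here, and each library came from a piece of the left liver lobe of 1 mouse, so the p-values measure the spread between mice.

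Total counts ran from 47659122 to 56147667 per library, and 18999 to 20241 genes had at least 1 count. Stk11 measured 22.1, 14.4 and 11.4 CPM (counts scaled to a common library size) in KO 1 to 3 and 66.1, 64.2 and 69.7 CPM in WT 1 to 3, and its log2 difference was -2.06 ± 0.247 (SE, adjusted p = 0.0167 with edgeR's quasi-likelihood test). KO 1 and WT 1 held 42472 and 29243 counts of Xist with at most 6 Y-linked counts, whereas the other 4 libraries held 6146 to 8199 Y-linked counts and at most 16 of Xist. KO 1 and WT 1 are called the Xist-positive pair and the others the Y-positive libraries. For many but not all genes the log2 differences within each state are given beside the pooled ones. Of 5 hepatocyte markers, with a median log2 difference of -1.15, Tat rose and 0 fell in 6 libraries (beside 2.15% and 1.22% of all genes). In the Y-positive libraries 1 was higher and 3 were lower in KO, beside 17.2% and 16.1% of all genes. The abundant Alb spanned 10394 to 50549.7 CPM in KO and 57064 to 95626 CPM in WT (adjusted p = 0.190). Apoa1 and Ttr were also below WT in every KO library, at -2.07 (adjusted p = 0.0568) and -1.15 (adjusted p = 0.0775). The 5 endothelial markers summed to 65.4 to 108 CPM in KO and 131 to 175 CPM in WT. Of these, 0 of 5 were past the threshold in 6 libraries and 5 of 5 were lower in KO in the 4 Y-positive libraries (16.1% of all genes). Of the bile duct, Kupffer, stellate, lymphocyte and neutrophil lists 0 members passed in 6 libraries, and 0 genes of any list were at 0 throughout. In the 4 Y-positive libraries, however, 3 of 4 lymphocyte, 2 of 5 stellate and 1 of 5 bile duct markers were lower in KO. Of 5 Kupffer markers 1 was higher and 2 were lower there, and 1 of 2 neutrophil markers was higher. The part of cell composition in the results was not tested, and in bulk tissue fewer cells of a type and less RNA per cell cannot be told apart.

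Before the values, stretches of sequence upstream of the 8 members that hold 1 motif spelling are shown. They include 2 genes of the Ugt1a locus with KO values on opposite sides of WT, and genes found almost only in 1 library. Genes of low level are also among them, whereas Gstk1, Gstm2, Ugt1a6b, Sult1a1, Sult2a1, Sult2a2 and Sult2a8, described below, are not. Of the 63 genes, 55 had a promoter in the RefSeq table of build GRCm38.p6, with 65 promoters between them. The 250 bases before each start were searched on both strands for 11 spellings of binding motifs. The letters GTTAAT, any base, then ATT form most of the site known for the liver factor HNF1. They were found upstream of 8 members, in 8 of the 65 promoters, and in 0.371% of 32851 promoters of the same length. This spelling was chosen for printing after the counts were seen. The sequences are given 5′ to 3′ along the gene, with the matched letters in capitals, read from the opposite strand for the Ugt1a genes.
Ugt1a10: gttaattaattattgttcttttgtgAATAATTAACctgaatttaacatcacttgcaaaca
Ugt1a9: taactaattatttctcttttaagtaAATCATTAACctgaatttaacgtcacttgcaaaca
Ugt1a1: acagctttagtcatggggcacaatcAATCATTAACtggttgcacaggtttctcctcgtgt
Sult1d1: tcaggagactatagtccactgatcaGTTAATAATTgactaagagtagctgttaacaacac
Sult2a5: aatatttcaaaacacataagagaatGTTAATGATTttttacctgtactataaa
Sult2a4: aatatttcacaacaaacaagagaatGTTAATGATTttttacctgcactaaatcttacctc
Sult2a3: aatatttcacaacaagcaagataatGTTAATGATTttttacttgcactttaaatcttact
Sult2a6: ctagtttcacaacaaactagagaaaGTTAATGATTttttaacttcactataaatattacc

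These stretches lie at chr1:88055311-88055370 (Ugt1a10, plus strand), chr1:88070659-88070718 (Ugt1a9, plus strand), chr1:88211889-88211948 (Ugt1a1, plus strand), chr5:87569051-87569110 (Sult1d1, minus strand), chr7:13623914-13623966 (Sult2a5, plus strand), chr7:13989661-13989720 (Sult2a4, minus strand), chr7:14123065-14123124 (Sult2a3, minus strand) and chr7:14254907-14254966 (Sult2a6, minus strand), all upstream of the first exon. Those of Ugt1a9 and Ugt1a1 also lie within the annotated span of Ugt1a10.
The match sits 95 bases before the start of Ugt1a9 and 45 bases before that of Ugt1a1, 2 genes of the locus whose KO values lay above (Ugt1a9) and below (Ugt1a1) all WT values. The flanks of Ugt1a10 and Ugt1a9 read alike beside the match, and so do those of Sult2a3, Sult2a4 and Sult2a5. Ugt1a10 stood at 1.48 to 2.06 CPM in KO and 1.56 to 2.22 CPM in WT, so genes with the same letters differed widely in level. The letters TGACNNNGC, the core of the antioxidant response element bound by NRF2, were found upstream of 3 members (Gsta3, Gstm5 and Gstm7) and in 10.2% of all promoters, and a spelling with TGA and GC parted by any 5 bases, which does not cover it, upstream of 21 members and in 37.2%. TATAAA, the TATA box, was found for 12 members (12.4% of all promoters), GCGTG, the core of the xenobiotic response element, for 10 (28.2%), TTCNNNGAA, the STAT site, for 4 (7.02%) and CACGTG, the E-box, for 0 (6.02%). The whole HNF1 site, a direct repeat for nuclear receptors, the cAMP response element and an HNF4 site were found for 0 members and in 0.009%, 0.033%, 1.55% and 0.384% of all promoters. A match is a description of these windows and not a measured binding site.

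Of the 63 genes, 45 passed the filter on low counts and were tested: 18 UGTs, 8 SULTs and 19 GSTs. An adjusted p of 0.05 with edgeR's quasi-likelihood test was passed by 4 members, 8.89% of those tested, beside 3.37% of the 14539 genes tested. Gstk1, Ugt1a9 and Gstm2 rose in KO liver and Ugt1a6b fell, beside 2.15% of all genes that rose and 1.22% that fell. DESeq2 passed 19 members (beside 15.8% of all genes), limma voom 4 (2.97%) and the same test with no low-count filter 9 of 58 (3.25%), and 23 members had an unadjusted p under 0.05 (26.3% of all genes). The KO and WT values did not overlap for 20 members (44.4%, beside 32.4% of all genes), of which 10 were higher (16.9% of all genes) and 10 lower (15.5%) in KO. The median log2 difference was -0.53 over the tested UGTs, with 15 of 18 below 0, -0.10 over the SULTs, with 4 of 8 below 0, and 0.61 over the GSTs, with 13 of 19 above 0, beside 0.01 over all genes. The SULT median depended on single libraries, at 0.93 without WT 1, -1.09 without WT 2, -1.23 without WT 3 and -0.37, -0.51 and -0.70 without KO 1, KO 2 and KO 3. Without KO 2 the UGT median was -0.35 and the GST median 0.11.

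The 4 Y-positive libraries, compared alone, gave 27 of 45 members past the threshold, beside 33.3% of 14546 genes, with 13 higher (17.2% of all genes) and 14 lower (16.1%) in KO. Among the UGTs 1 was higher and 9 were lower in KO, among the SULTs 3 were higher and 2 lower, and among the GSTs 9 were higher and 3 lower. The medians in these libraries were -0.72 for UGTs, -0.49 for SULTs and 0.79 for GSTs. In the Xist-positive pair, KO 1 over WT 1, which has no replicate and no test, they were -0.08, -0.16 and 0.17. Without KO 1, 25 of 45 members passed (beside 30.2% of all genes), and 16 of the members named here passed that did not in 6 libraries. None of these 16 passed with any other single library left out. Leaving out KO 1 also leaves Y-positive KO libraries alone against a WT group that keeps WT 1. The adjusted p-values given without KO 1 in later paragraphs carry these limits. Leaving out KO 2 left 2 members past the threshold (0.578% of all genes) and leaving out WT 1 left 3 (1.75%). Without KO 3, WT 2 or WT 3 no member passed, beside 0.233%, 0.0401% and 0.133% of all genes.

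**Figure D1:**
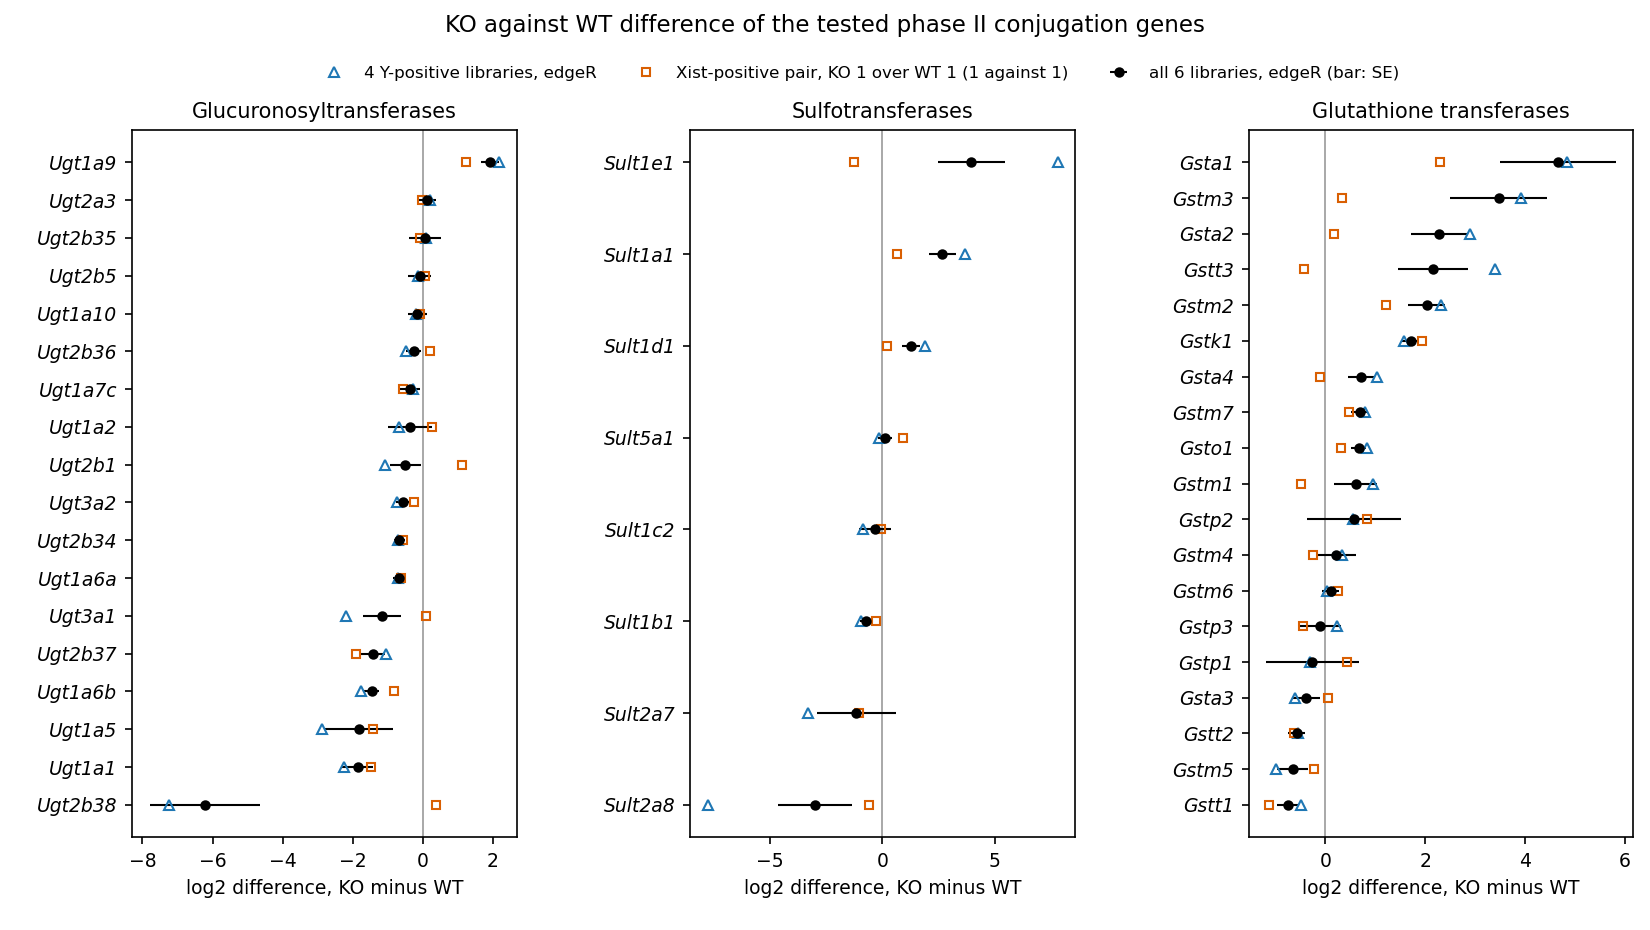
Log2 difference, KO minus WT, of the 45 tested genes in 3 panels, on an axis that differs between panels. Black points with bars are the fit of all 6 libraries with its SE, blue triangles the 4 Y-positive libraries, and orange squares the ratio of KO 1 to WT 1. Ugt1a9, Gstk1 and Gstm2 lie to the right of 0 and Ugt1a1 and Ugt1a6b to the left on all 3 measures, whereas the markers of Sult1e1, Sult2a8 and Ugt2b38 lie far apart.

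The counts summed over each kind of transfer showed how far the 6 livers differed. UGT transcripts summed to 3930, 4255 and 4630 CPM in KO 1 to 3 and 4393, 5951 and 5652 CPM in WT 1 to 3. GST transcripts summed to 4186, 11795 and 9019 CPM in KO and 4368, 6780 and 7718 CPM in WT. SULT transcripts summed to 1059, 1795 and 2169 CPM in KO and 1683, 1287 and 1097 CPM in WT. The groups overlapped in all 3 sums. KO 1 and WT 1 had the lowest GST sum of their group, KO 2 and KO 3 had the 2 highest sums, and KO 1 had the lowest SULT sum of all 6 libraries.

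The Ugt1a genes share 1 locus, chr1:88055388-88220002 on the plus strand (GRCm38), in which each gene has its own first exon joined to common downstream exons. Ugt1a1 is the enzyme that conjugates bilirubin, and Ugt1a9 and the Ugt1a6 pair act mainly on phenols. Any 2 of these genes shared at least 1311 nt of annotated exon, so their counts rest on how reads were divided among them. Summed over the 9 genes, the locus gave 866, 879 and 923 CPM in KO and 1427, 1148 and 1043 CPM in WT, with every KO library below every WT library.

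Ugt1a9 measured 338, 592 and 623 CPM in KO 1 to 3 and 144, 135 and 131 CPM in WT 1 to 3. All KO values lay above all WT values, with KO 1 the lowest of the KO libraries. The log2 difference was 1.92 ± 0.259 (SE, adjusted p = 0.0214), or 3.78-fold, and it was 2.19 in the Y-positive libraries and 1.23 in the Xist-positive pair. Without KO 2, KO 3, WT 1, WT 2 or WT 3 its adjusted p was 0.0573, 0.102, 0.0536, 0.142 or 0.138, and the log2 difference stayed between 1.77 and 1.96.

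Ugt1a1 was the opposite case. It measured 301, 107 and 125 CPM in KO and 846, 589.7 and 504 CPM in WT, again without overlap. Its log2 difference of -1.86 ± 0.441 missed the threshold (adjusted p = 0.0662), with -2.24 ± 0.176 (adjusted p = 0.00113) in the Y-positive libraries and -1.49 in the Xist-positive pair. KO 1 held the highest KO value, and without it the adjusted p was 0.00287 by the same quasi-likelihood test. With any other single library left out it was 0.14 to 0.22.

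Ugt1a6b fell, with 66.1, 46.9 and 52.8 CPM in KO and 117, 171 and 169 CPM in WT. The log2 difference was -1.46 ± 0.210 (SE, adjusted p = 0.0255), with -1.77 in the Y-positive libraries and -0.82 in the Xist-positive pair. For Ugt1a6b the adjusted p was 0.0797, 0.136, 0.147 and 0.138 without KO 2, KO 3, WT 2 and WT 3. Its near-copy Ugt1a6a, with which it shares 98.4% of aligned coding bases, measured 92.5, 122 and 107 CPM in KO and 142, 185 and 187 CPM in WT. Both genes were lower in every KO library than in every WT library, and Ugt1a6a missed the threshold (log2 difference -0.68 ± 0.177, adjusted p = 0.0778, and 0.0443 without KO 1). How the counts of this pair were divided is uncertain. Ugt1a5 overlapped between groups, at 64.1, 5.91 and 8.57 CPM in KO and 173, 60.2 and 45.2 CPM in WT. It missed the threshold in 6 libraries (-1.82 ± 0.979, adjusted p = 0.283 by edgeR's quasi-likelihood test). Ugt1a5 was lower in KO in the Y-positive libraries (-2.87 ± 0.236, adjusted p = 0.00131), and the Xist-positive pair gave -1.43.

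The make-up of the locus differed between the groups more than its sum did. Ugt1a9 held 39.1%, 67.4% and 67.5% of the locus counts in KO 1 to 3 and 10.1%, 11.8% and 12.6% in WT 1 to 3. The share of Ugt1a1 was 34.7%, 12.2% and 13.5% in KO and 59.3%, 51.4% and 48.3% in WT. Ugt1a9 was thus the leading Ugt1a transcript in each KO library and Ugt1a1 in each WT library.

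**Figure D2:**
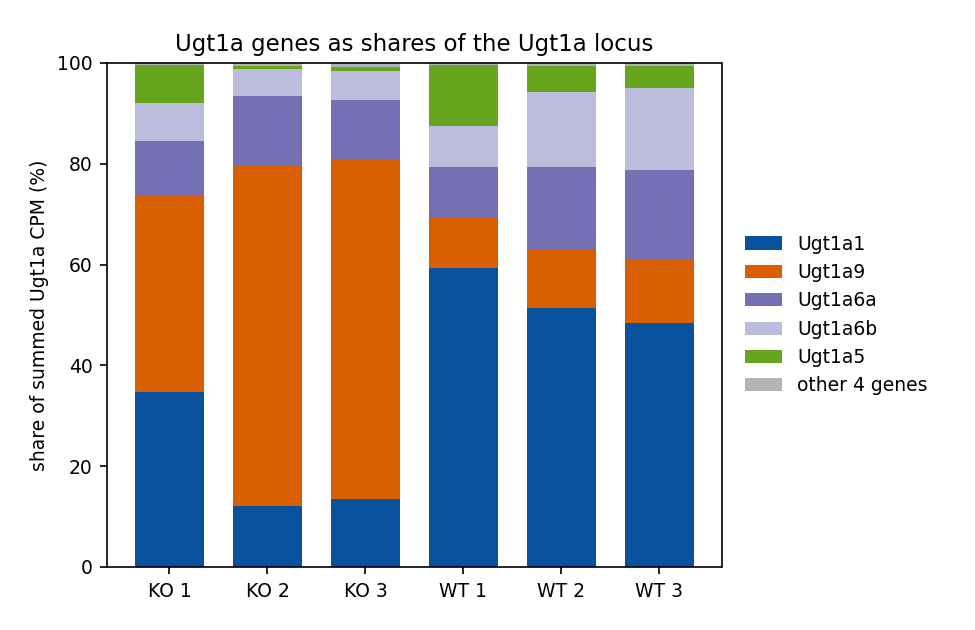
Share of the summed Ugt1a CPM (percent, vertical axis) held by each Ugt1a gene in each of the 6 libraries, as stacked bars. The Ugt1a9 segment takes 39.1% to 67.5% of the KO bars and 10.1% to 12.6% of the WT bars.

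The Ugt2b genes, which conjugate steroids, bile acids and drugs, lie together on chromosome 5, and none of the 7 passed the threshold in 6 libraries. Per unit length, Ugt2b5 was the most abundant UGT in both groups, at 1254 ± 305 TPM (counts per exonic length scaled to a common total, SD, n = 3) in KO and 1306 ± 358 TPM in WT. Its CPM values were 726, 1193 and 1216 in KO and 699, 1334 and 1306 in WT, so that the low values were those of KO 1 and WT 1, and its log2 difference was -0.09 ± 0.329 (adjusted p = 0.881), turning to 0.11, 0.06 and 0.04 without KO 1, WT 2 and WT 3. Next in order came Ugt2b36, at 585 ± 67.8 TPM in KO and 687 ± 99.6 TPM in WT (log2 difference in CPM -0.27 ± 0.214, adjusted p = 0.461). The place after it was held by Ugt1a9 in KO (526 ± 144 TPM) and by Ugt1a1 in WT (649 ± 222 TPM), and neither differed from Ugt2b36 beyond the spread.

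Ugt2b34 stood closest to the threshold among the Ugt2b genes. It measured 414, 398 and 426 CPM in KO and 613, 685 and 670.4 CPM in WT, a narrow and separate range in each group. The log2 difference was -0.67 ± 0.154 (adjusted p = 0.0640), with -0.72 in the Y-positive libraries and -0.57 in the Xist-positive pair. The adjusted p was 0.0169 without KO 1.

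The far less abundant Ugt2b37 measured 1.42, 1.67 and 1.19 CPM in KO and 5.60, 2.45 and 3.53 CPM in WT (log2 difference -1.43 ± 0.347, adjusted p = 0.0696, and 0.0447 without KO 1). Ugt2b38, 97.0% identical to Ugt2b5 in coding bases, was present at 17.8 and 36.0 CPM in WT 2 and WT 3 and at 0.256 CPM in WT 1. All 3 KO libraries held 0.0849 to 0.360 CPM. The high values were thus limited to the WT Y-positive libraries, where the KO difference was -7.25 ± 0.563 (adjusted p = 0.00112). In the Xist-positive pair the ratio was 0.37 on the log2 scale, and the pooled difference was -6.23 ± 1.57 (adjusted p = 0.0745, and 0.00905 without WT 1).

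Ugt2b1 measured 489.5, 294 and 384 CPM in KO and 225, 722 and 701 CPM in WT. KO 1 was above WT 1, whereas KO 2 and KO 3 were below WT 2 and WT 3. The 4 Y-positive libraries gave -1.07 ± 0.193 (adjusted p = 0.0120), against 1.12 for the Xist-positive pair. In all 6 libraries Ugt2b1 missed the threshold (-0.50 ± 0.445, adjusted p = 0.510 by edgeR's quasi-likelihood test). Ugt3a1 and Ugt3a2 belong to a family known for using sugars other than glucuronic acid. Ugt3a2 measured 310.1, 189.7 and 287 CPM in KO and 367, 408 and 379 CPM in WT (log2 difference -0.55 ± 0.216, adjusted p = 0.166, and 0.0454 without KO 1). For Ugt3a1 the values were 96.1, 19.8 and 35.7 CPM in KO and 90.9, 134 and 117 CPM in WT. It missed the threshold in 6 libraries (-1.17 ± 0.539, adjusted p = 0.221 by edgeR's quasi-likelihood test). Ugt3a1 passed in the 4 Y-positive libraries (-2.18 ± 0.288, adjusted p = 0.00500), and the Xist-positive pair gave 0.08. The other tested UGTs (Ugt1a2, Ugt1a7c, Ugt1a10, Ugt2a3 and Ugt2b35) differed by -0.36 to 0.13 on the log2 scale. Ugt1a8 and Ugt2a2 held at most 13.7 counts in any library and were not tested, and Ugt2a1 held 0.

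**Figure D3:**
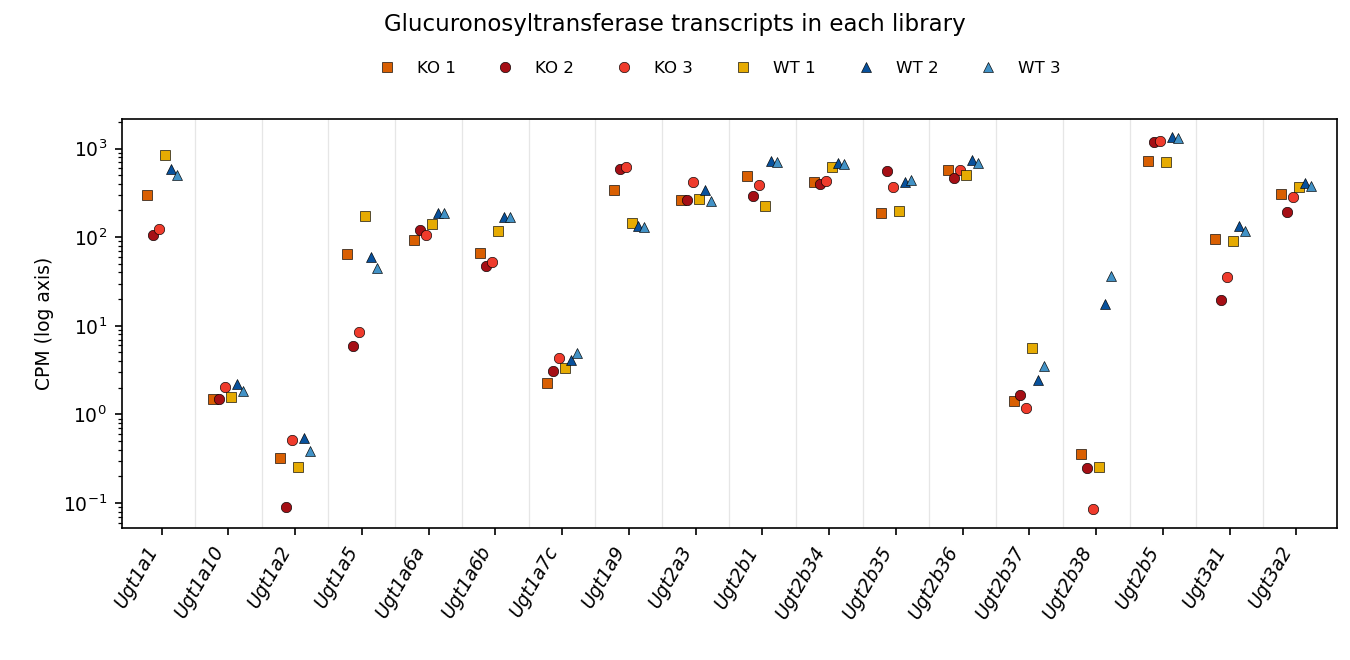
CPM of the 18 tested UGT genes in each library, on a log axis. Squares are the Xist-positive libraries, circles the other KO libraries and triangles the other WT libraries. Ugt1a9 shows all KO markers above all WT markers, Ugt1a1 and Ugt1a6b the reverse, and Ugt2b38 is high in WT 2 and WT 3 alone.

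Among the SULTs 0 of 8 tested genes passed in 6 libraries. An unadjusted p under 0.05 was held by 4 (26.3% of all genes), limma voom gave 0 (2.97%) and DESeq2 gave 2 (15.8%). In KO the largest contributor was Sult1a1 (chr7:126672865-126676432, minus strand), which sulfates phenols and overlaps Sgf29 on the opposite strand, so that its count is uncertain to that extent. It measured 544, 1539 and 1782 CPM in KO 1 to 3 and 349.8, 146 and 115 CPM in WT 1 to 3. The groups did not overlap, but the KO value was lowest and the WT value highest in the Xist-positive pair. The pooled log2 difference was 2.66 ± 0.596 (adjusted p = 0.0605), just outside the threshold, with 3.67 ± 0.230 (adjusted p = 0.000638) in the Y-positive libraries and 0.64 in the Xist-positive pair. Without KO 1 the adjusted p was 0.00817 by the same quasi-likelihood test, and with any other single library left out it was 0.0602 to 0.231.

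Sult1d1, which acts on catecholamines and other small phenols, measured 186, 224 and 343 CPM in KO and 159, 89.2 and 61.5 CPM in WT. It followed the same order, with 1.28 ± 0.391 (adjusted p = 0.105) in 6 libraries and 1.90 ± 0.281 (adjusted p = 0.00682) in the Y-positive ones, and an adjusted p of 0.0419 without KO 1. Sult1e1, the estrogen sulfotransferase, gave 0.309, 6.90 and 7.73 CPM in KO and 0.887, 0.0193 and 0.0428 CPM in WT. WT 2 and WT 3 held 3 counts of it between them, beside 747 in KO 2 and KO 3, a ratio of 239 with a 95% counting interval (exact Clopper-Pearson) of 81.5 to 1163 that covers counting error only. In the Xist-positive pair KO 1 was the lower, at -1.27 on the log2 scale. The pooled difference of 3.96 ± 1.48 missed the threshold (adjusted p = 0.153, and 0.0266 without KO 1), and as a fitted value against nearly empty libraries it depends on the prior count.

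The Sult2a genes, a cluster on chromosome 7, act on hydroxysteroids and bile acids, and Sult2a8 is known to sulfate bile acids in mouse liver. Sult2a8 (chr7:14410686-14446769, minus strand) measured 284, 1.55 and 7.32 CPM in KO and 423, 1004 and 886 CPM in WT. KO 2 and KO 3 were nearly empty of it, whereas KO 1 was nearer to WT 1. The difference was -7.75 ± 0.825 (adjusted p = 0.00269) in the Y-positive libraries, -0.57 in the Xist-positive pair and -2.98 ± 1.65 (adjusted p = 0.297) in all 6. Without KO 1 the log2 difference was -7.46 (adjusted p = 0.00415).

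Other SULTs, 6 genes of the Sult2a and Sult3a families, were found almost only in WT 1 and failed the filter, so they are not among the tested genes. Sult2a1, which sulfates dehydroepiandrosterone and is known in mice as a female-predominant liver transcript, held 17706.85 counts in WT 1 and 34.26 in KO 1, with at most 6 in the other 4 libraries. That is 349 CPM in WT 1 and 0.583 CPM in KO 1, a ratio of 599 (95% counting interval 428 to 865). Sult2a2 measured 288 CPM in WT 1 and 1.48 CPM in KO 1, a ratio of 195 (158 to 244). Both transcripts were thus abundant in 1 of the 6 livers, the Xist-positive WT liver.

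The same held for Sult3a1, at 37.6 CPM in WT 1 and 0.720 CPM in KO 1 (ratio 52.2, 38.5 to 72.7), and for Sult2a5, at 20.6 and 0.549 CPM (ratio 37.5, 26.4 to 55.2). Sult2a3 gave 551 counts in WT 1 and 1 in KO 1. Sult3a2 had 14 counts in WT 1 and 3 in KO 1. Each ratio compares 1 library with 1, and with no low-count filter the adjusted p of these 6 genes over all libraries ran from 0.123 for Sult2a3 to 0.542 for Sult3a2. Sult2a1 and Sult2a5 share 94.9% of aligned coding bases, so the division of counts within the cluster is uncertain. Among the sequences shown above, those of Sult2a3, Sult2a4, Sult2a5 and Sult2a6 carry the same letters, and Sult2a4 and Sult2a6 held at most 8.22 counts in any library.

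The remaining SULTs were weakly expressed. Sult2a7 measured 4.43, 0.0180 and 0.0849 CPM in KO and 9.11, 0.559 and 0.449 CPM in WT (adjusted p = 0.706). Its log2 difference turned from -1.15 to 1.58 without WT 1, and it was lower in KO in the Y-positive libraries (-3.30 ± 0.644, adjusted p = 0.0151). Sult1b1, which acts on thyroid hormones, measured 19.1, 10.3 and 17.8 CPM in KO and 23.3, 31.9 and 22.1 CPM in WT (log2 difference -0.71 ± 0.262, adjusted p = 0.150). Sult1c2 and Sult5a1 differed by -0.33 and 0.13, each with an adjusted p of at least 0.797. Without WT 1 both changed sign, to 0.28 and -0.17, and Sult1c2 stood at 0.02 without KO 2 and 0.01 without KO 3. Sult2b1 and Sult4a1 held at most 11 counts in any library, and Sult1c1, Sult6b1 and Sult6b2 held 0 throughout.

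Sult1a1 made up 51.4%, 85.7% and 82.2% of SULT counts in KO 1 to 3 and 20.8%, 11.3% and 10.5% in WT 1 to 3. The share of Sult2a8 was 26.8%, 0.0862% and 0.338% in KO and 25.1%, 78.0% and 80.7% in WT. Per unit length, Sult1a1 led in KO at 1884 ± 892 TPM (SD, n = 3), followed by Sult1d1 at 225 ± 50.3 TPM. In WT the order was Sult2a8 (510 ± 180 TPM), Sult2a2 (307 ± 532 TPM) and Sult1a1 (306 ± 213 TPM), and the last 2 did not differ beyond their spread. The place of Sult2a2 rests on WT 1, at 922 TPM, with 0.11 and 0 TPM in WT 2 and WT 3.

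**Figure D4:**
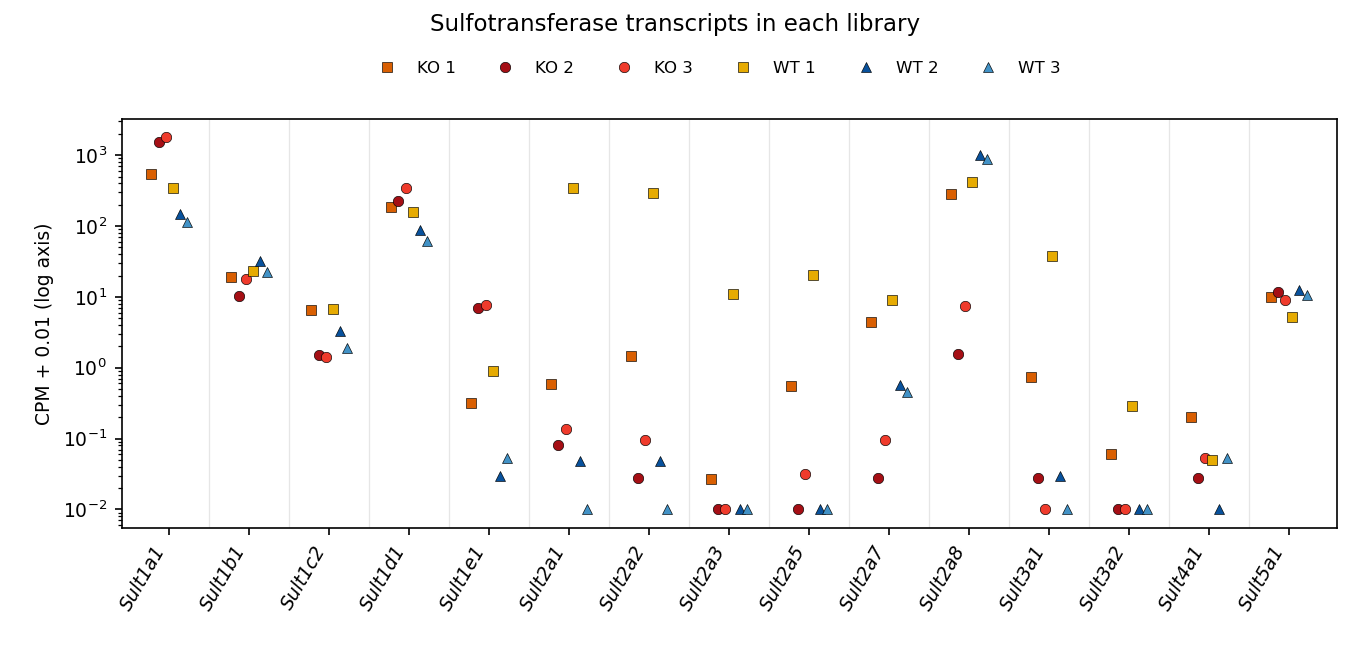
CPM of the 15 SULT genes with at least 10 counts in a library, plotted as CPM plus 0.01 on a log axis for each library. Sult1a1 is higher in every KO library, Sult2a8 is low in KO 2 and KO 3, and Sult2a1, Sult2a2, Sult2a3, Sult2a5 and Sult3a1 stand high in WT 1 alone.

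Among the GSTs, Gstk1 had the smallest adjusted p of all members. It encodes the kappa-class enzyme of mitochondria and peroxisomes (chr6:42245935-42250447, plus strand). Its values were 309, 217 and 262 CPM in KO 1 to 3 and 80.3, 82.9 and 77.5 CPM in WT 1 to 3. Every KO library lay well above the tightly grouped WT libraries, and the Xist-positive library was the highest in KO. The log2 difference was 1.71 ± 0.172 (SE, adjusted p = 0.00995), or 3.27-fold, with 1.57 in the Y-positive libraries and 1.94 in the Xist-positive pair. Its adjusted p was 0.0592, 0.0984 and 0.104 without KO 3, WT 2 and WT 3.

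The mu-class genes lie together on chromosome 3. Gstm2 (chr3:107981702-107986453, minus strand) rose, with 135, 366 and 167 CPM in KO and 58.1, 53.1 and 52.8 CPM in WT. The log2 difference was 2.03 ± 0.377 (SE, adjusted p = 0.0431), or 4.08-fold, with 2.33 in the Y-positive libraries and 1.22 in the Xist-positive pair. The KO libraries spread more than the WT libraries, with KO 2 the highest. The adjusted p was 0.136, 0.0970, 0.211 and 0.199 without KO 3, WT 1, WT 2 and WT 3.

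Its neighbour Gstm3 measured 104, 2278 and 687 CPM in KO and 82.0, 93.5 and 101 CPM in WT. KO 1 was barely above the WT libraries, while KO 2 and KO 3 were several times higher, and the log2 difference of 3.47 ± 0.974 missed the threshold (adjusted p = 0.0896, and 0.00404 without KO 1). It was 3.92 in the Y-positive libraries and 0.34 in the Xist-positive pair. Gstm7 measured 84.0, 75.1 and 106 CPM in KO and 60.2, 54.4 and 49.5 CPM in WT (0.69 ± 0.164, adjusted p = 0.0675, and 0.0265 without KO 1). Gstm1, the most abundant GST per unit length in KO at 4223 ± 2598 TPM, measured 1298, 4403 and 2556 CPM in KO and 1831, 1706 and 1888 CPM in WT. KO 1 lay below and the other KO libraries above the WT range (0.61 ± 0.423, adjusted p = 0.397, and 0.0435 without KO 1). The Y-positive libraries gave 0.95 for Gstm1 and the Xist-positive pair -0.50. Gstm4, Gstm5 and Gstm6 differed by -0.65 to 0.21 on the log2 scale. Gstm5 missed the threshold in 6 libraries (-0.65 ± 0.314, adjusted p = 0.238 by edgeR's quasi-likelihood test). It was lower in KO in the Y-positive libraries (-0.99 ± 0.166, adjusted p = 0.00998), and the Xist-positive pair gave -0.23.

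Of the alpha class, Gsta1 and Gsta2 are known as inducible and Gsta3 as the constitutive form of mouse liver. Gsta1 measured 8.46, 216 and 49.7 CPM in KO and 1.64, 4.22 and 4.96 CPM in WT, without overlap (4.66 ± 1.16, adjusted p = 0.0726, and 0.00584 without KO 1). Gsta2, 97.6% identical to Gsta1 in coding bases, measured 48.6, 268 and 190.4 CPM in KO and 43.1, 31.5 and 29.4 CPM in WT (2.29 ± 0.570, adjusted p = 0.0732, and 0.00160 without KO 1). For both genes KO 2 was the highest library and KO 1 the lowest of the KO libraries. The Y-positive libraries gave 4.85 for Gsta1 and 2.91 for Gsta2, and the Xist-positive pair 2.30 and 0.17. Gsta3 was far more abundant, at 1178, 651 and 1145 CPM in KO and 1127, 1394 and 1348 CPM in WT (-0.38 ± 0.272, adjusted p = 0.408). Gsta4, which conjugates products of lipid peroxidation, measured 50.3, 112 and 82.7 CPM in KO and 54.3, 46.9 and 47.3 CPM in WT. It missed the threshold in 6 libraries (0.72 ± 0.278, adjusted p = 0.161 by edgeR's quasi-likelihood test). Gsta4 passed in the Y-positive libraries (1.05 ± 0.166, adjusted p = 0.00844), and the Xist-positive pair gave -0.11.

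The theta class was mixed. Gstt1 measured 125, 120.4 and 122 CPM in KO and 274, 184 and 156 CPM in WT (log2 difference -0.74 ± 0.224, adjusted p = 0.102), and Gstt2 was also lower in every KO library (-0.57 ± 0.173, adjusted p = 0.104). Gstt3, of the same cluster on chromosome 10, overlaps the protein-coding Gm20441 on the same strand, so that its count is uncertain to that extent. Gstt3 went the other way in the Y-positive libraries. It measured 85.0, 369.7 and 363 CPM in KO and 114, 39.3 and 29.5 CPM in WT, with 3.41 ± 0.192 (adjusted p = 0.000544) in those 4 libraries and -0.42 in the Xist-positive pair. The pooled difference was 2.16 ± 0.708 (adjusted p = 0.120, and 0.0209 without KO 1). Gstt4 held 0 counts.

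Gsto1, an omega-class thioltransferase that overlaps Cfap43 on the opposite strand, measured 127, 146 and 169 CPM in KO and 102, 87.6 and 88.5 CPM in WT (0.67 ± 0.156, adjusted p = 0.0647, and 0.00989 without KO 1). Gsto2 held 4 to 11 counts and was not tested. Gstp1, the pi-class enzyme and a male-predominant transcript of mouse liver, separated the states and not the groups. It measured 429.5 and 316 CPM in KO 1 and WT 1, 2240.5 and 2888 CPM in KO 2 and KO 3, and 2741 and 3585 CPM in WT 2 and WT 3. The log2 difference was -0.26 ± 0.931 (adjusted p = 0.881) and turned to 0.21 without KO 1 and 0.27 without WT 3. Gstp2, 98.1% identical to Gstp1 in coding bases, and Gstp3 differed by 0.57 and -0.11. Per unit length Gstp1 led the GSTs in WT at 3065 ± 2317 TPM, ahead of Gstm1 at 2715 ± 253 TPM, a difference within the spread.

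**Figure D5:**
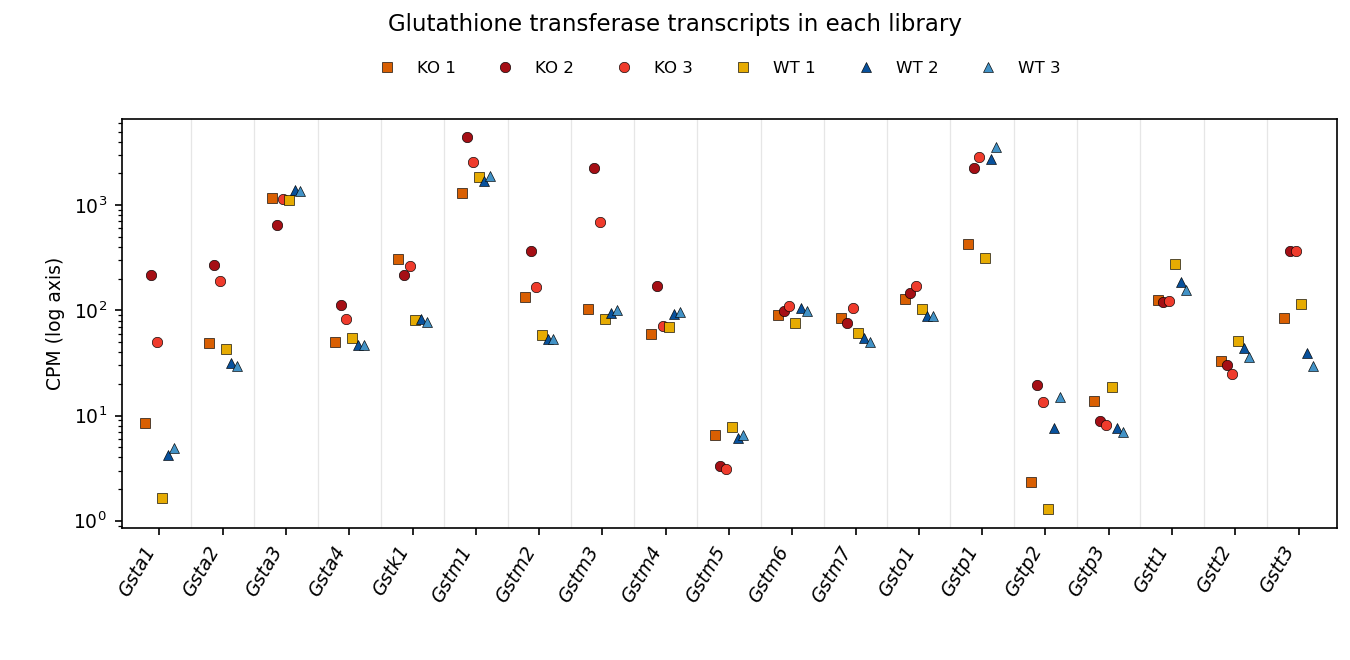
CPM of the 19 tested GST genes in each library on a log axis, with squares for the Xist-positive libraries. Gstk1 and Gstm2 have all KO markers above all WT markers, Gsta1, Gsta2 and Gstm3 are highest in KO 2, and Gstp1 is lowest in KO 1 and WT 1.

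Whether the KO difference differed between the Xist-positive pair and the Y-positive libraries was tested with the group-by-state term over all 6 libraries. In this fit each state holds a KO difference and the Xist-positive pair has 1 library a side. The spread thus comes from the Y-positive libraries alone, and the state cannot be told apart from the mice KO 1 and WT 1. KO 1 also held the most Stk11 of the KO libraries, and whether this bears on the term was not tested. The term passed for 7 of 45 members (15.6%, beside 2.9% of 14539 genes). For Sult1a1, Sult1e1, Gsta2 and Gstt3 the KO difference was higher in the Y-positive libraries (1.19% of all genes), and for Sult2a8, Ugt2b1 and Ugt2b38 it was lower there (1.71%). Sult1e1 gave -9.31 ± 0.586 (adjusted p = 0.00508), Gstt3 -3.84 ± 0.313 (adjusted p = 0.00745) and Sult2a8 7.17 ± 1.22 (adjusted p = 0.0483), as the difference in the Xist pair minus that in the other libraries. Without WT 2, 4 members passed (beside 0.587% of all genes) and without WT 3, 2 did (0.446%). Without KO 2, 26 members passed (19.9% of all genes) and without KO 3, 34 did (31.2%), so the larger counts came with larger shares of all genes. With no low-count filter 19 of 58 passed (6.78%). With the state as an added term and 1 common KO difference, 10 members passed (22.2%, beside 10.3% of all genes): Ugt1a9, Gstk1, Gstm2 and Gsta1 higher (5.36% of all genes), and Ugt1a1, Ugt1a5, Ugt1a6a, Ugt1a6b, Ugt2b34 and Ugt2b37 lower (4.99%).

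Genes that supply, remove or transport the conjugates were counted from fixed lists, with 3.37% of all genes past the threshold as the background. Of 4 genes for the supply and removal of glucuronic acid, 1 rose: Gusb, the lysosomal enzyme that splits glucuronides, measured 37.2, 46.6 and 59.4 CPM in KO and 22.4, 25.9 and 26.4 CPM in WT (0.94 ± 0.188, adjusted p = 0.0489). The supply genes Ugp2 and Ugdh differed by 0.39 ± 0.248 and 0.88 ± 0.542, with values that overlapped. Of 4 efflux pumps for conjugates 1 fell: Abcc3, which exports glucuronides to the blood, measured 178, 146 and 107 CPM in KO and 311, 343 and 307 CPM in WT (-1.16 ± 0.213, adjusted p = 0.0431). Abcc2, the pump of the bile canaliculus, differed by -0.06 ± 0.173. In the Y-positive libraries 1 of the 4 pumps was higher and 2 were lower in KO, beside 33.3% of all genes past the threshold there.

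For PAPS and sulfate, 0 of 7 genes passed in 6 libraries. In the Y-positive libraries Papss2 was higher and Papss1 and Slc35b3 were lower in KO, beside 33.3% of all genes past the threshold there. Papss1, one of the enzymes that make PAPS, measured 10.8, 4.57 and 5.88 CPM in KO and 17.3, 15.4 and 16.8 CPM in WT (-1.21 ± 0.312, adjusted p = 0.0759). The far more abundant Papss2 measured 427, 320.0 and 508 CPM in KO and 373, 214 and 184 CPM in WT (0.70 ± 0.315, adjusted p = 0.211). For glutathione supply and turnover 0 of 10 tested genes passed in 6 libraries. By edgeR's quasi-likelihood test the smallest p were those of Nat8 (-3.71 ± 1.24, adjusted p = 0.124), Gss (0.77 ± 0.270, 0.138) and Txnrd1 (1.02 ± 0.388, 0.158). In the Y-positive libraries Gss, Gsr and Txnrd1 were higher and Nat8 was lower in KO. Gclc, the rate-limiting enzyme of glutathione synthesis, differed by -0.32 ± 0.301 in 6 libraries. Glutathione transferases outside the named families, such as the microsomal Mgst1 (-0.35 ± 0.276) and Gstz1 (0.00 ± 0.206), gave 0 of 5.

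Of 10 regulators 0 passed in 6 libraries, and in the Y-positive libraries 3 were higher (Nr1i2, Arnt and Nfe2l2) and 4 lower (Nr1i3, Ppara, Rxra and Nr1h4) in KO, beside 33.3% of all genes. Nr1i2, the xenobiotic receptor PXR, measured 82.7, 115 and 115 CPM in KO and 61.7, 60.6 and 61.9 CPM in WT (0.76 ± 0.159, adjusted p = 0.0541). Nfe2l2, which encodes NRF2, differed by 0.74 ± 0.20 (adjusted p = 0.0838), and the bile acid receptor Nr1h4 by -0.77 ± 0.197 (adjusted p = 0.0755). Of 10 other conjugating enzymes 1 rose in 6 libraries (Nnmt), and in the Y-positive libraries 2 were higher and 4 lower in KO. Nnmt, which methylates nicotinamide, measured 617, 978 and 1232 CPM in KO and 40.4, 31.7 and 33.8 CPM in WT (4.74 ± 0.321, adjusted p = 0.00357).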

How the data were processed

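Poly(A) RNA-seq libraries from 6 mouse livers were compared. The authors deposited 1 table of expected counts for 55450 genes, and the submitters' processing notes name bcl2fastq 2.17, cutadapt 1.18, STAR 2.7.0f, RSEM 1.3.1 and build mm9. All 55450 versioned gene identifiers and symbols, however, matched GENCODE release M21 (GRCm38), from which positions and exon lengths were taken. The use of strand was not given in the sources used here, so counts of overlapping genes are uncertain. The deposited expected counts (4.93% to 5.47% of values per library were not whole) were rounded, filtered with filterByExpr, scaled by TMM and tested in edgeR 4.0.16 (R 4.3.3) with the quasi-likelihood test and group as the only term, with Benjamini-Hochberg adjustment over 14539 genes and a threshold of 0.05. The SE is the log2 difference divided by the square root of F. TPM here are counts per exonic length scaled to 1000000. The state of a library is that with more counts, Xist or 4 Y-linked genes. Ratios of KO 1 to WT 1 use an offset of 0.1 CPM, and 3 counts equal 0.0515 to 0.0641 CPM.

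The members and lists were chosen with earlier results of these data known. Named members are those past the threshold, the 8 with the smallest p and the 3 most abundant of each class, the next 3 outside the threshold and those past the threshold for the group-by-state term; others are given where a family is completed. In simulated counts the test recovered 10.1% of genes changed 2-fold and 73.7% of those changed 4-fold, with 9 of 89 calls false, over 14314 genes. Alternatives were limma voom (limma 3.58.1), DESeq2 1.42.0, other scalings and filters, a replicate block, the state term, the 4 libraries with Y-linked counts and each library left out. The replicate numbers come from the titles of different mice, and no column was left unmapped.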

Additional observations from a re-analysis of the deposited data

Results flagged for a closer look

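For 7 members the KO difference differed between the Xist-positive pair (KO 1, WT 1) and the 4 Y-positive libraries, by edgeR's quasi-likelihood test of the group-by-state term. The values are log2 differences in that pair minus those in the other libraries. They were -2.74 for Gsta2 (adjusted p = 0.0199), -3.84 for Gstt3 (0.00745), -3.04 for Sult1a1 (0.0199), -9.31 for Sult1e1 (0.00508), 7.17 for Sult2a8 (0.0483), 2.19 for Ugt2b1 (0.0364) and 7.74 for Ugt2b38 (0.0396). Sult1e1 passed under all 8 alternatives. Without WT 2 the adjusted p was 0.11 for Gsta2, 0.133 for Sult1a1, 0.138 for Sult2a8 and 0.229 for Ugt2b1. Without WT 3 it was 0.119 for Gsta2, 0.0503 for Gstt3, 0.182 for Sult1a1, 0.145 for Sult2a8, 0.230 for Ugt2b1 and 0.0692 for Ugt2b38. With a mean of at least 1 CPM required, Sult2a8 had 0.0527. The Xist side of each value is 1 KO mouse against 1 WT mouse, so the state cannot be told apart from these mice.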

How the results depend on the processing

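Against 4 members past the threshold (2 UGTs, 0 SULTs, 2 GSTs), DESeq2 gave 19 (7, 2, 10) and no low-count filter 9 (4, 1, 4), beside 15.8% and 3.25% of all genes. The state term gave 10 with 7 UGTs and the 4 Y-positive libraries 27 (10, 5, 12), beside 10.3% and 33.3% of all genes. Leaving out 1 library gave 0 to 25 (0 to 9, 0 to 4, 0 to 12), beside 0.0401% to 30.2% of all genes. With the replicate block 1 member passed, 0 UGTs and 1 GST, beside 0.722% of all genes. Same-numbered libraries deviated together with r = 0.178, 0.044 and 0.068, and KO 2 and KO 3 deviated most with another number, so the numbers were not taken as pairs. The UGT median was -0.72 in the Y-positive libraries, and the SULT median -1.13 with a mean of at least 1 CPM and -1.23 to 0.93 with 1 library left out. The state term of the difference passed for 19 members without a filter (6.78% of all genes) and for 2 to 34 with 1 library left out (0.446% to 31.2%). Of single members' values, 419 kept direction and side of the threshold, 60 gained and 30 lost a call. Direction turned in 11, all with 1 library left out but for Sult5a1 at -0.15 in the Y-positive libraries. With 1 library left out the log2 difference ran from -0.77 to 0.27 for Gstp1, -1.45 to 0.28 for Sult1c2, -6.04 to 1.58 for Sult2a7, -0.17 to 0.40 for Sult5a1 and -0.34 to 0.11 for Ugt2b5. The cause was not tested. Members below 3 counts in all libraries are limited by depth.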

Other observations

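Within WT alone, 11 members differed at least 4-fold between WT 1 and both other WT libraries with at least 10 counts on the higher side, a rule chosen after the values were seen. The share of all genes that meet this rule was not counted, so whether 11 members are more than that share is not known. Of these 8 were higher in WT 1 (Sult1e1, Sult2a1, Sult2a2, Sult2a3, Sult2a5, Sult2a7, Sult3a1 and Sult3a2) and 3 were lower (Gstp1, Gstp2 and Ugt2b38). In KO the same genes did not all keep that order: Sult1e1 measured 0.309 CPM in KO 1 against 6.90 and 7.73 CPM in KO 2 and KO 3, and Ugt2b38 stayed at 0.0849 to 0.360 CPM in all 3. Gstp1 kept it, at 429.5 CPM in KO 1 against 2240.5 and 2888 CPM. So did Gstp2, at 2.35 CPM against 19.7 and 13.3 CPM, and Sult2a7, at 4.43 CPM against 0.0180 and 0.0849 CPM. Sult2a1, Sult2a2, Sult2a5 and Sult3a1 were also highest in KO 1 among the KO libraries, at 0.549 to 1.48 CPM. Sult2a3 and Sult3a2 held at most 3 counts in any KO library. Each of these comparisons has 1 library on the Xist-positive side and no test.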
